A study of Mus musculus with 24 samples.

Results

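The expression of 9 interferon-induced antiviral effector genes was followed in neonatal mouse hearts that lacked Xinβ, with and without AAV9-delivered YAP. The genes were *Ifit1*, *Ifit2*, *Ifit3*, *Rsad2*, *Oasl2*, *Isg15*, *Usp18*, *Bst2* and *Ifitm3*. They were chosen by name from the Ensembl identifiers of the deposited tables, and all 9 were listed among the 15667 genes of the uninjected hearts and the 15327 genes of the injected hearts. Polyadenylated RNA from the heart at P7.5 (postnatal day 7.5), taken from the apex by the labels and from the ventricles by the study's methods, was sequenced in 24 libraries, 4 in each of 6 groups. Uninjected wild-type (WT) and Xinβ KO hearts were read as 50 bp single ends. The other 4 groups were WT and Xinβ KO littermates that received AAV9 at P1, carrying either GFP as the control (WT/GFP and KO/GFP) or active YAP with the S127A substitution (WT/YAP and KO/YAP), and were read as 150 bp pairs. Xinβ is the protein of *Xirp2*. The Xinβ KO is a germline loss in every cell, carried on a C57BL6 background with a lacZ-Neo cassette in the gene, and the homozygous mice die before weaning. The cardiac troponin T promoter limited GFP and YAP to cardiomyocytes, whereas every cell type of the tissue contributed RNA to a library. The sources name littermate controls and a mix of sexes, and do not say whether a library held 1 heart or several, so p-values measure the spread between libraries.

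Type I interferons are secreted by cells that sense foreign or misplaced nucleic acid. They bind the IFNAR1/IFNAR2 receptor, and the kinases JAK1 and TYK2 then act through ISGF3, a factor that contains STAT2 and IRF9 and binds the interferon-stimulated response element (ISRE) in promoters of interferon-stimulated genes. The products of these genes block viruses at entry, translation, replication and release, and some of them restrain the pathway itself. In the heart they are best known from viral myocarditis and from the response to cell death after injury.

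The 9 genes act at different steps. *Ifit1* (ENSMUSG00000034459, chromosome 19 of GRCm38 from 34640871 to 34650009), *Ifit2* (ENSMUSG00000045932, chromosome 19 from 34550694 to 34576419) and *Ifit3* (ENSMUSG00000074896, chromosome 19 from 34583531 to 34588731) form 1 cluster and encode tetratricopeptide proteins. The protein of *Ifit1* binds RNA lacking host cap marks and holds back its translation. *Rsad2* (ENSMUSG00000020641, chromosome 12 from 26442746 to 26456452) encodes viperin, a radical SAM enzyme that makes a chain-terminating nucleotide. *Oasl2* (ENSMUSG00000029561, chromosome 5 from 114896936 to 114912234) encodes an oligoadenylate synthetase-like protein. *Isg15* (ENSMUSG00000035692, chromosome 4 from 156199424 to 156200818) encodes a ubiquitin-like modifier, and *Usp18* (ENSMUSG00000030107, chromosome 6 from 121245906 to 121270917) the protease that removes it and that also damps signalling at IFNAR2. *Bst2* (ENSMUSG00000046718, chromosome 8 from 71534255 to 71537456) encodes tetherin, which holds budding virions at the cell surface, and *Ifitm3* (ENSMUSG00000025492, chromosome 7 from 141009586 to 141010770) a membrane protein that blocks viral entry from endosomes. *Ifit3* has a near-identical neighbour, *Ifit3b*, and reads shared by the pair can be counted for either, so its values are uncertain to that extent. A noncoding gene on the opposite strand overlaps *Usp18*, and whether the counting used strand is not given in the sources used here.

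Promoter sequences are shown for the genes whose window held an ISRE core before the transcript start, since the ISRE is the element that ISGF3 binds. RefSeq promoter windows of GRCm38.p6, from 250 bases before to 50 bases after a transcript start, were matched by symbol for 8 of the 9 genes. The ISRE core, GAAA followed by any 2 bases and GAAA again, searched on both strands with overlapping matches counted, was present in 6 of the 8, where 3.99% of the 27025 genes with a window held it. Each stretch below is read 5′ to 3′ along the gene, and capitals mark the matches, of which TTTC-first ones lie on the opposite strand.
*Ifit1*, chr19:34640773-34640825, plus strand: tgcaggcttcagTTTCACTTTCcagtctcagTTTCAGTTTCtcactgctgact
*Ifit3*, chr19:34583361-34583428, plus strand: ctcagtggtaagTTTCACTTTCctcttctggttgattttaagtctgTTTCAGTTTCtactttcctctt
*Rsad2*, chr12:26456551-26456584, minus strand: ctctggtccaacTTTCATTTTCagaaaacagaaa
*Isg15*, chr4:156200863-156200908, minus strand: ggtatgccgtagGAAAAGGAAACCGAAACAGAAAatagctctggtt
*Bst2*, chr8:71537575-71537614, minus strand: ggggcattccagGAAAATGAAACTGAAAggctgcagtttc
*Isg15* held 3 overlapping matches, *Ifit1* and *Ifit3* held 2 apart from each other, *Bst2* held 2 that overlap, and *Rsad2* held 1. The matches of *Ifitm3* lay only after its start, and the windows of *Ifit2* and *Oasl2* held none of these letters.

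Reads assigned to genes ranged from 20490875 to 31154155 per uninjected library and from 15015038 to 19444404 per injected library. Values are CPM, read counts relative to library size, with library sizes scaled by the authors, and the 2 tables were normalized separately, so uninjected and injected hearts are set side by side and not tested against each other. *Xirp2* fell from 139 ± 26.7 CPM in uninjected WT hearts to 0.488 ± 0.166 in Xinβ KO hearts (SD, n = 4 each), and its means were 116, 80.5, 0.305 and 0.47 CPM in WT/GFP, WT/YAP, KO/GFP and KO/YAP hearts. One library was the highest throughout the effector genes. WT/GFP replicate 1 was the highest of the 16 injected libraries in all 9 of them, while it was the highest for 8.03% of the 14597 genes tested. Its values were 2.39-fold (*Ifitm3*) to 7.59-fold (*Isg15*) above the mean of the other 3 WT/GFP libraries, with a median of 3.79-fold over the 9 genes. Those 3 were not alike either. The mean log2(CPM + 1) of the 9 genes was 4.84, 3.50, 2.67 and 2.90 in WT/GFP replicates 1 to 4. Results that use the WT/GFP group are therefore given with and without it. Since that library was singled out by its values in these same genes, leaving it out raises KO/GFP minus WT/GFP and narrows the spread by construction, and p-values without it are conditional on that choice and stand as a description.

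**Figure D1:**
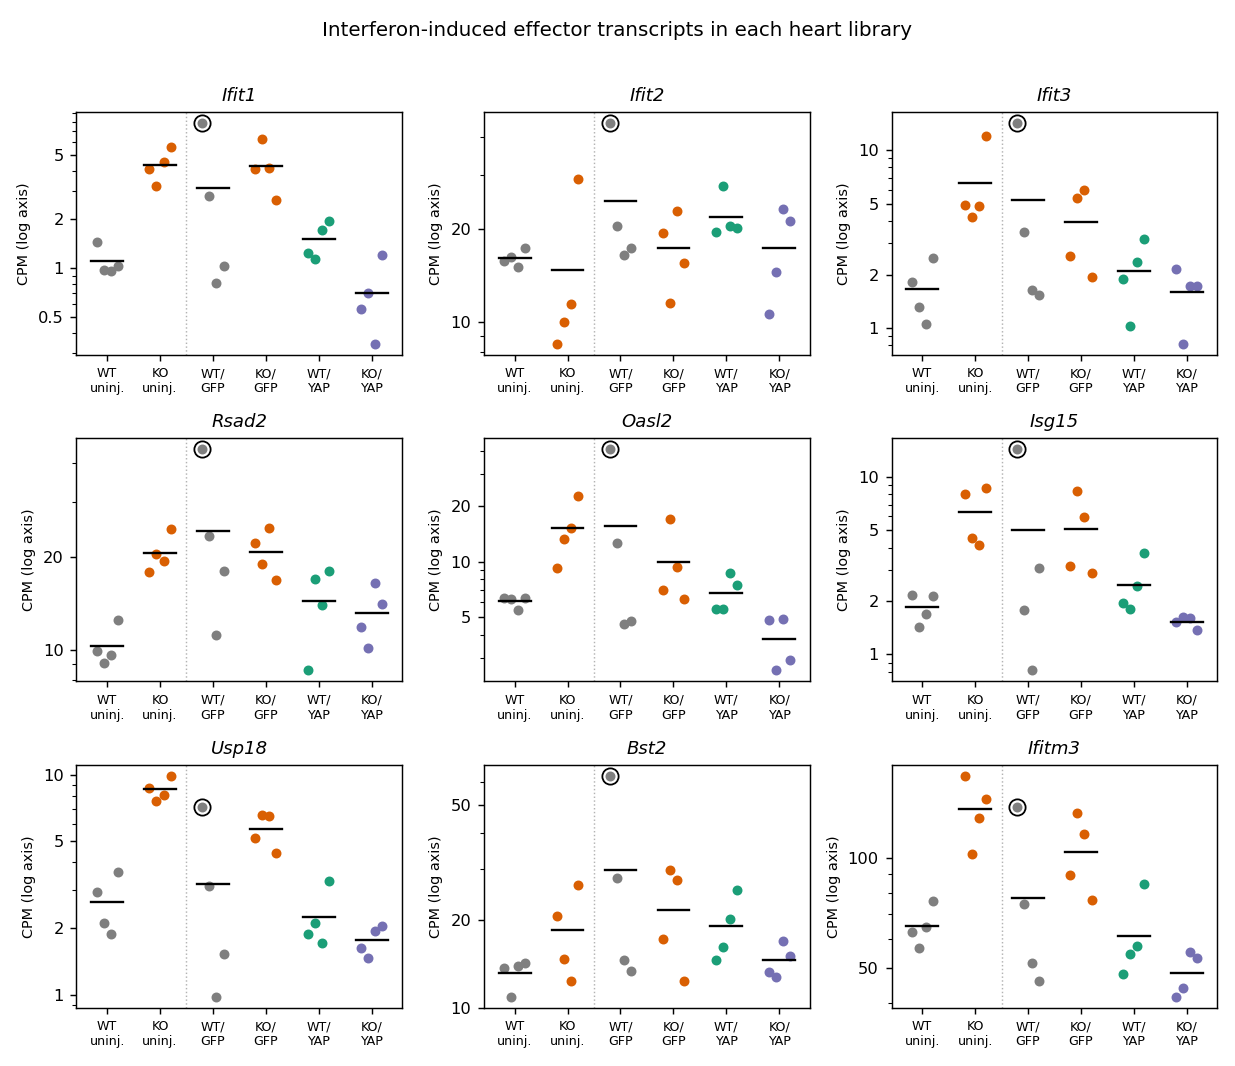
CPM (log axis) of each effector gene in every library, as points, with the group mean as a bar. The 6 groups run along the horizontal axis, the dotted line separates the uninjected from the injected table, and a ring marks WT/GFP replicate 1, the highest injected library in all 9 panels. KO uninjected points lie above the WT uninjected points without overlap in 7 panels, all but *Ifit2* and *Bst2*.

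Levels differed widely between the genes. Per kilobase of exon, in uninjected WT hearts, *Ifitm3* was highest at 96.1 ± 12.1 CPM per kb (SD, n = 4), followed by *Bst2* at 14.6 ± 1.72 and *Ifit2* at 4.12 ± 0.242. *Isg15* at 2.46 ± 0.479 and *Rsad2* at 2.38 ± 0.351 CPM per kb overlapped in their libraries. *Ifit3*, *Oasl2* and *Usp18* overlapped in turn at 0.954, 0.954 and 0.947 CPM per kb, and *Ifit1* was lowest at 0.416 ± 0.0871. Uninjected Xinβ KO hearts kept *Ifitm3* and *Bst2* at the top of this order, with 200.3 ± 40.6 and 20.5 ± 7.02 CPM per kb, and *Isg15* came next at 8.39 ± 3.08, overlapping *Rsad2* at 4.75 ± 0.668. From *Isg15* down to *Ifit1*, each gene overlapped its neighbour in this order.

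The comparison of uninjected Xinβ KO with WT hearts asks what loss of Xinβ alone did to these genes. Transcripts of 7 of the 9 genes were higher in Xinβ KO hearts, by 2.0-fold (*Rsad2*) to 3.94-fold (*Ifit1*) as ratios of mean CPM. *Ifit2* and *Bst2* were not called. The 7 included *Ifit1* and *Ifit3*, both genes of the ISG15 pathway and the entry blocker *Ifitm3*. A gene was called at an adjusted p under 0.05 in limma on log2(CPM + 1), over all 15598 genes tested, and 3.23% of those genes were called higher and 3.46% lower.

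Among the *Ifit* genes, *Ifit1* was measured as 4.08, 3.23, 4.5 and 5.61 CPM across Xinβ KO libraries (replicates 1 to 4, as in all such lists here). The WT libraries held 1.45, 0.972, 0.966 and 1.03 CPM. Every Xinβ KO library lay above every WT library, and the difference was 1.33 on the log2 scale (SE 0.16, adjusted p = 0.0027). *Ifit3* was at 4.91, 4.22, 4.85 and 12 CPM in Xinβ KO hearts and at 1.81, 1.32, 1.06 and 2.47 CPM in WT hearts (log2 difference 1.41, SE 0.30, adjusted p = 0.026). The groups did not overlap, and Xinβ KO replicate 4 stood far above the other 3. *Ifit2* was not called with all libraries, unlike its neighbours in the cluster. Replicates 1 to 3 of Xinβ KO held 8.50, 9.98 and 11.4 CPM and replicate 4 held 29.2 CPM, whereas the WT libraries lay between 15.1 and 17.4 CPM. Its log2 difference was -0.28 (SE 0.32, adjusted p = 0.66), and without Xinβ KO replicate 4 it was called lower, at -0.65 (SE 0.12, adjusted p = 0.011). That library stood out by its own *Ifit2* value, so leaving it out lowers the *Ifit2* mean and narrows the spread by construction. The p-values without it, here and below, are conditional on that choice and stand as a description. The fit without it was the only 1 of 8 leaving out 1 library that called *Ifit2*. It called 1244 of 15598 genes lower.

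*Rsad2* was at 17.9, 20.4, 19.4 and 24.7 CPM in Xinβ KO hearts and at 9.96, 9.10, 9.66 and 12.5 CPM in WT hearts. The log2 difference was 0.93 (SE 0.14, adjusted p = 0.0070), with no overlap. *Oasl2* was at 9.28, 13.3, 15.3 and 22.8 CPM in Xinβ KO hearts, against WT libraries that lay within 5.43 to 6.30 CPM (log2 difference 1.13, SE 0.23, adjusted p = 0.021). The Xinβ KO values of *Oasl2* were spread more widely than the WT values, and all were higher.

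In the ISG15 pathway, *Isg15* was at 8.06, 4.55, 4.15 and 8.63 CPM in Xinβ KO hearts and at 2.17, 1.42, 1.70 and 2.14 CPM in WT hearts. The log2 difference was 1.31 (SE 0.23, adjusted p = 0.012), and the Xinβ KO libraries fell into a higher and a lower pair, both above WT. Its protease *Usp18* was the most even of the 9 genes across Xinβ KO libraries, at 8.70, 7.61, 8.09 and 9.90 CPM, against 2.93, 2.12, 1.89 and 3.63 CPM in WT hearts (log2 difference 1.41, SE 0.17, adjusted p = 0.0030).

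Of the membrane effectors, *Ifitm3* was called higher and *Bst2* was not, and the difference between these genes was not tested. *Ifitm3* was at 168, 102, 128 and 145 CPM in Xinβ KO hearts and at 62.9, 56.7, 64.6 and 76.4 CPM in WT hearts, a log2 difference of 1.03 (SE 0.16, adjusted p = 0.0078) with no overlap. *Bst2* was at 20.7, 14.7, 12.3 and 26.4 CPM in Xinβ KO hearts and at 13.7, 10.9, 13.9 and 14.3 CPM in WT hearts. Its groups overlapped, and the log2 difference of 0.41 was not called (SE 0.22, adjusted p = 0.32).

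The 7 genes called higher were the same 7 whose libraries did not overlap, a state that 8.01% of all genes tested showed in that direction. Of the 7, the calls of *Ifit1*, *Isg15*, *Rsad2*, *Usp18* and *Ifitm3* held with each library left out in turn. *Ifit3* was not called without WT replicate 1, 2 or 3 (adjusted p between 0.073 and 0.085), and *Oasl2* was not called without Xinβ KO replicate 2 or 3 or without any one of the 4 WT replicates (adjusted p between 0.053 and 0.075).

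**Figure D2:**
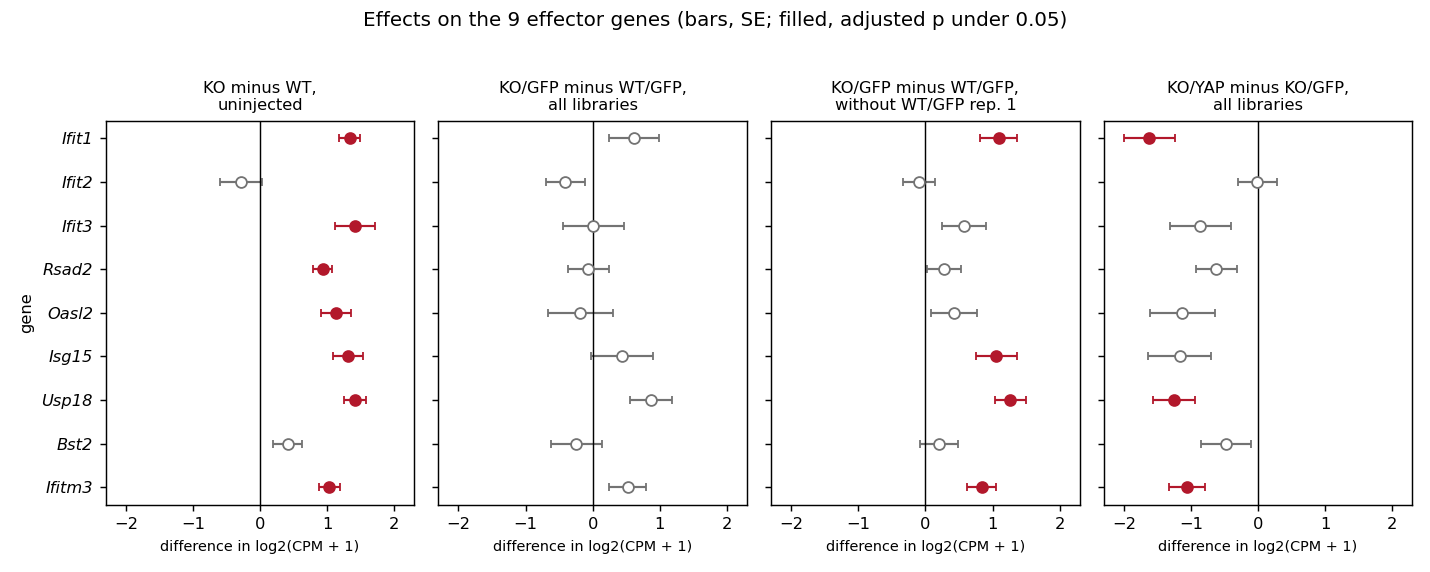
Difference in log2(CPM + 1) of each effector gene (horizontal axis) with its standard error, from limma, in 4 panels. Filled points have an adjusted p under 0.05, and their number is 7 in uninjected hearts, 0 under GFP with all libraries, 4 under GFP without WT/GFP replicate 1, and 3 for YAP against GFP in Xinβ KO hearts.

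The rest of the pathway was read from lists of named genes. None of 10 interferon ligand genes was listed in either table, and no level can be given for them. Of 32 further antiviral effectors tested in uninjected hearts, 15 were called higher and none lower, with a median log2 difference of 0.61, against a median of 0.0011 over all genes tested. They included *Ifi27l2a* (2.21 ± 0.606 CPM in WT and 11.2 ± 3.61 in Xinβ KO hearts, log2 difference 1.90, adjusted p = 0.0030), *Rtp4* (2.58 ± 0.549 and 8.996 ± 2.13 CPM, 1.47, adjusted p = 0.0030) and the oligoadenylate synthetase gene *Oas1a* (0.465 ± 0.270 and 4.15 ± 1.60 CPM, 1.78, adjusted p = 0.0035). Of 7 transcription factor genes of the pathway, 3 were called higher. *Irf7*, which amplifies interferon production, was at 3.43 ± 1.08 CPM in WT and 10.005 ± 0.736 CPM in Xinβ KO hearts (log2 difference 1.34, adjusted p = 0.0035). The ISGF3 subunit genes *Stat2* and *Irf9* rose by 0.79 and 0.76 on the log2 scale (adjusted p = 0.016 and 0.015).

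Receptors, sensors and conjugation enzymes were read in the same way. None of 9 receptor and kinase genes was called by limma in uninjected hearts, with 3 at an unadjusted p under 0.05, while edgeR called 0 and DESeq2 called 1 higher and 1 lower. Of 9 nucleic acid sensors and adaptors, *Dhx58* was called higher (log2 difference 0.87, adjusted p = 0.025) and *Cgas*, the sensor of cytosolic DNA, lower (-1.04, adjusted p = 0.034). None of the 4 ISG15 conjugation enzymes was called by limma or edgeR and 1 was called by DESeq2, with 1 at an unadjusted p under 0.05 in limma. Of 15 GTPases and chemokines known for induction by interferon-γ, 5 were called higher, among them *Iigp1* (6.01 ± 1.82 CPM in WT and 22.4 ± 7.76 CPM in Xinβ KO hearts, log2 difference 1.72, adjusted p = 0.0093), *Gbp4* (1.24, adjusted p = 0.011) and *Igtp* (0.78, adjusted p = 0.020). Of 5 negative regulators, *Socs3*, which blocks JAK kinases, was called higher (0.74, adjusted p = 0.048). Without Xinβ KO replicate 4 its log2 difference was 0.70 (adjusted p = 0.061), and 1 of the 5 was still called higher, a different gene. Without Xinβ KO replicate 4, the counts were 15 of 32 effectors, 3 of 7 transcription factors and 6 of 15 interferon-γ targets higher, with 1 of the last lower, and the receptor gene *Ifngr1* was called higher (0.54, adjusted p = 0.0058).

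Leukocyte markers moved with these genes in opposite directions. Of 8 neutrophil markers, *Ly6g*, *Cxcr2* and *Camp* were listed in neither table. The 5 listed were all called higher in uninjected Xinβ KO hearts. Their summed level lay between 46.2 and 100.6 CPM, against 4.65 to 10.4 CPM in WT hearts. In WT replicate 3, 3 of the 5 were at 0. A marker near 0 in WT hearts could be tested only if it passed 1 CPM in the 4 Xinβ KO libraries. Of 10 macrophage markers tested, 7 were called lower and none higher (median log2 difference -1.06), with sums of 65.8 to 116.6 CPM in Xinβ KO and 125.1 to 146.5 CPM in WT hearts. Without Xinβ KO replicate 4, 5 macrophage markers were called lower and 1 higher. Fibroblast markers were lower in 4 of 9, endothelial markers lower in 1 of 10, cardiomyocyte markers higher in 2 of 10, and none of 6 erythroid markers was called by limma. Xinβ KO replicate 4, the highest library in 8 of the 9 effector genes among uninjected hearts, had the lowest sum of both lists in its group. Of the 10 genes of the lymphocyte list, 1 was listed in the uninjected table, *Ptprc*, which leukocytes in general express. *Cd3e* was not listed, so no marker particular to lymphocytes could be read there. Of 7 markers of plasmacytoid dendritic cells, the main producers of type I interferon, *Siglech* was not listed, and *Bst2* itself is 1 of the 2 listed. The part of these cells in the differences was not tested. In bulk RNA, fewer cells of a type and less RNA per cell cannot be told apart.

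**Figure D3:**
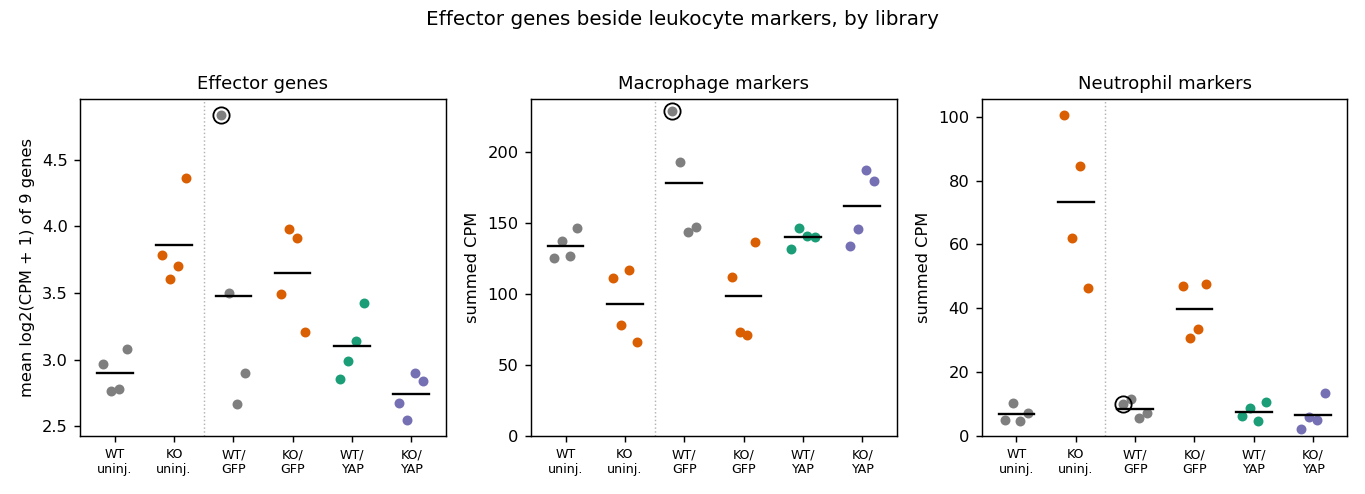
For each library (points; bars are group means), the mean log2(CPM + 1) of the 9 effector genes, the summed CPM of the macrophage markers and the summed CPM of the neutrophil markers, by group. The ring marks WT/GFP replicate 1, which has the highest effector mean (4.84) and the highest macrophage sum (228.8 CPM) but a neutrophil sum within the range of its group.

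The comparison of KO/GFP with WT/GFP hearts asks the same question in mice that received the control virus at P1. With all libraries, none of the 9 effector genes was called by limma, edgeR or DESeq2. *Usp18* was the only one at an unadjusted p under 0.05 in limma. With each of the 16 libraries left out in turn, the only fit with a call was the one without WT/GFP replicate 1, where *Ifit1*, *Isg15*, *Usp18* and *Ifitm3* passed the threshold (4 genes), with 4.76% of all genes tested called higher in that fit and 6.43% called higher and 7.22% lower with all libraries.

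*Usp18* was at 5.15, 6.54, 6.49 and 4.41 CPM in KO/GFP hearts and at 7.11, 3.12, 0.979 and 1.53 CPM in WT/GFP hearts. The KO/GFP libraries lay above WT/GFP replicates 2 to 4 and below replicate 1. The log2 difference was 0.87 with all libraries (SE 0.31, adjusted p = 0.078) and 1.26 without replicate 1 (SE 0.23, adjusted p = 0.0035). *Ifit1* was at 4.10, 6.28, 4.15 and 2.64 CPM in KO/GFP hearts and at 7.89, 2.79, 0.815 and 1.04 CPM in WT/GFP hearts. Its log2 difference was 0.62 with all libraries (SE 0.37, adjusted p = 0.31) and 1.09 without replicate 1 (SE 0.27, adjusted p = 0.019).

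*Isg15* was at 3.17, 8.37, 5.97 and 2.86 CPM in KO/GFP hearts and at 14.3, 1.78, 0.815 and 3.07 CPM in WT/GFP hearts. The single WT/GFP library at 14.3 CPM exceeded every KO/GFP library. The log2 difference was 0.43 with all libraries (SE 0.47, adjusted p = 0.59) and 1.06 without replicate 1 (SE 0.31, adjusted p = 0.041). *Ifitm3* was at 89.6, 132, 116 and 76.8 CPM in KO/GFP hearts and at 138, 74.7, 51.6 and 46.1 CPM in WT/GFP hearts, a log2 difference of 0.52 with all libraries (SE 0.27, adjusted p = 0.23) and 0.84 without replicate 1 (SE 0.21, adjusted p = 0.022). Without that library, the groups did not overlap for *Usp18* and *Ifitm3*, a state of 9.04% of all genes tested in that direction.

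The other 5 effector genes were not called with or without that library. *Oasl2* was at 7.02, 17.1, 9.36 and 6.22 CPM in KO/GFP hearts and at 40.7, 12.5, 4.57 and 4.77 CPM in WT/GFP hearts. Its log2 difference was -0.19 with all libraries and 0.43 without replicate 1 (adjusted p = 0.85 and 0.47). *Rsad2* and *Bst2* changed sign in the same way, from -0.07 to 0.27 and from -0.24 to 0.20 on the log2 scale. *Ifit3* was at 2.55, 5.36, 5.97 and 1.93 CPM in KO/GFP hearts and at 14.2, 3.46, 1.63 and 1.53 CPM in WT/GFP hearts (log2 difference 0.01 and, without replicate 1, 0.58, adjusted p = 0.99 and 0.30). *Ifit2* was at -0.41 with all libraries and -0.10 without replicate 1. Over 10 alternative fits that kept all WT/GFP and KO/GFP libraries, *Ifit3* ran from -0.40 to 0.08. Differences between genes were not tested. The difference between the uninjected and GFP comparisons was not tested.

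Among the further genes of the pathway, 3 of 29 antiviral effectors tested were called higher in KO/GFP hearts and none lower, beside 6.43% higher over all genes tested (5 higher without WT/GFP replicate 1, beside 4.76%). They included *Ifitm1* (2.001 ± 0.280 CPM in WT/GFP and 11.4 ± 8.17 CPM in KO/GFP hearts, log2 difference 1.80, adjusted p = 0.0026) and *Ifi27* (0.56, adjusted p = 0.027). None of 7 transcription factor genes was called by limma with all libraries or without WT/GFP replicate 1, and edgeR called none. DESeq2 called 1 lower, and 1 was at an unadjusted p under 0.05 in limma. *Irf7* was at 4.95 ± 3.73 CPM in WT/GFP and 6.17 ± 1.94 CPM in KO/GFP hearts. Of the receptor and kinase genes, 3 of 9 were called higher, namely *Ifnlr1*, the interferon-λ receptor (0.93, adjusted p = 0.0052), *Ifngr1* (0.49, adjusted p = 0.017) and *Jak2* (0.51, adjusted p = 0.038), of which *Jak2* was not called without WT/GFP replicate 1 (adjusted p = 0.11). *Socs3* was called higher (1.09, adjusted p = 0.0075) and *Cgas* lower (-0.79, adjusted p = 0.040, and 0.12 without that library). The 13 interferon-γ targets tested had a median log2 difference of -0.89 with all libraries and -0.21 without WT/GFP replicate 1. None was called by limma, with 2 at an unadjusted p under 0.05, while edgeR called 6 and DESeq2 called 5 lower. *Gbp4* shows the width of that group, with 52.3 ± 72.5 CPM in WT/GFP hearts against 14.7 ± 1.86 CPM in KO/GFP hearts.

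Macrophage markers were lower in KO/GFP hearts (7 of 11 tested were called, with or without WT/GFP replicate 1), with sums of 70.96 to 136.8 CPM against 143.8 to 228.8 CPM in WT/GFP hearts. Neutrophil markers summed to between 30.7 and 47.7 CPM in KO/GFP and between 5.55 and 11.4 CPM in WT/GFP hearts. Of the 8 in that list, 3 were tested and 2 were called higher. Fibroblast, erythroid and endothelial markers were lower in 7 of 9, 5 of 7 and 3 of 10, and cardiomyocyte markers higher in 2 of 10. Of 2 genes of the lymphocyte list tested, 1 was called lower. The summed level of the 4 listed was 2.55 to 5.28 CPM in KO/GFP and 7.72 to 12.2 CPM in WT/GFP hearts, with no overlap. The 4 include *Ptprc*, so this sum is not particular to lymphocytes. WT/GFP replicate 1 had the highest macrophage sum of the 16 injected libraries and neutrophil and lymphocyte marker sums (9.80 and 11.9 CPM) within the range of the other 3 WT/GFP libraries. *Siglech* and *Cd3e* were not listed in the injected table. The part of leukocytes in the values of that library was not tested.

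**Figure D4:**
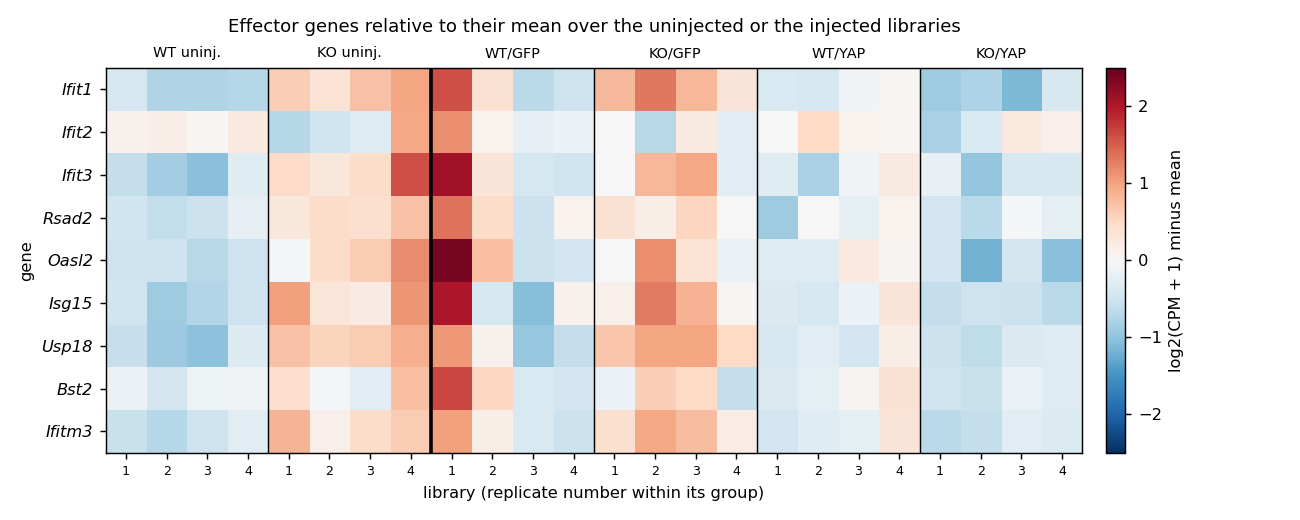
log2(CPM + 1) of the 9 effector genes (rows) in the 24 libraries (columns, by group and replicate number), each minus the mean of that gene over the 8 uninjected or the 16 injected libraries. Red is above and blue below that mean. The column of WT/GFP replicate 1 is red in every row, KO uninjected columns are red in most rows, and KO/YAP columns are blue in most rows.

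The comparison of KO/YAP with KO/GFP hearts asks what active YAP in cardiomyocytes did to these genes where Xinβ was absent. Transcripts of *Ifit1*, *Usp18* and *Ifitm3* fell, to 0.164, 0.314 and 0.468 of their KO/GFP mean CPM. For 6 of the 9 genes, every KO/YAP library lay below every KO/GFP library, namely for those 3 and for *Isg15*, *Rsad2* and *Oasl2*. Over all genes, 6.92% of the 14597 genes tested were called lower and 8.52% did not overlap in that direction. This comparison shares its KO/GFP libraries with the one before.

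*Ifit1* was at 0.564, 0.701, 0.343 and 1.2 CPM in KO/YAP hearts, and its highest value was under the lowest of 2.64 CPM in KO/GFP hearts. The log2 difference was -1.62 (SE 0.37, adjusted p = 0.0083). These values rest on 6 to 21 reads a library. *Usp18* was at 1.64, 1.46, 1.94 and 2.06 CPM in KO/YAP hearts (log2 difference -1.25, SE 0.31, adjusted p = 0.013), and *Ifitm3* was at 41.7, 44.0, 55.1 and 53.2 CPM (log2 difference -1.06, SE 0.27, adjusted p = 0.016). All 3 calls held with each of the 16 libraries left out in turn.

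*Isg15* was at 1.52, 1.64, 1.60 and 1.37 CPM in KO/YAP hearts, the narrowest spread of any group for this gene. Its log2 difference of -1.17 was not called by limma or edgeR with all libraries (SE 0.47, adjusted p = 0.10 in limma), and DESeq2 called it lower, for 4 of the 9 genes in that tool. *Oasl2* was at 4.79, 2.57, 4.86 and 2.92 CPM in KO/YAP hearts, with a log2 difference of -1.13 that was not called either (SE 0.48, adjusted p = 0.13). The spread in this fit is estimated over all 16 libraries. Without WT/GFP replicate 1, which enters neither group, *Isg15* and *Oasl2* were called as well (adjusted p = 0.013 and 0.026), for 5 genes called lower. Over all genes, that fit called 1031 of 14597 lower. *Rsad2* was at 11.8, 10.2, 16.5 and 14.1 CPM in KO/YAP hearts and at 22.2, 18.9, 24.9 and 16.9 CPM in KO/GFP hearts (log2 difference -0.62, adjusted p = 0.18). *Ifit3* and *Bst2* overlapped between the groups, with log2 differences of -0.86 and -0.48 (adjusted p = 0.22 and 0.42). *Ifit2* had a log2 difference of -0.01 (SE 0.29, adjusted p = 0.98), with 10.7 to 23.3 CPM in KO/YAP and 11.6 to 22.9 CPM in KO/GFP hearts.

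Of 29 further antiviral effectors, 6 were called lower in KO/YAP than in KO/GFP hearts and none higher (8 lower without WT/GFP replicate 1), among them *Ifitm1* (11.4 ± 8.17 CPM in KO/GFP and 1.83 ± 0.278 CPM in KO/YAP hearts, log2 difference -1.88, adjusted p = 0.0019), *Ifi27l2a* (-1.61, adjusted p = 0.0034) and *Oas1a* (-1.74, adjusted p = 0.0044). *Irf7* was the 1 of 7 transcription factor genes called lower (-1.10, adjusted p = 0.049), where edgeR called 0 and DESeq2 called 2 of the 7, and *Irf9* joined it without WT/GFP replicate 1 (-0.79, adjusted p = 0.023). The receptor genes *Ifnlr1* and *Ifngr1* were called lower (-0.92 and -0.51, adjusted p = 0.0053 and 0.012), and so was *Socs3* (-0.98, adjusted p = 0.014). None of 13 interferon-γ targets was called by limma, edgeR or DESeq2, with 1 at an unadjusted p under 0.05, and 3 were called lower without WT/GFP replicate 1. None of 9 sensors was called by limma or edgeR and DESeq2 called 1 lower, with 3 at an unadjusted p under 0.05 in limma, and without WT/GFP replicate 1 limma called 1 higher (*Cgas*, 0.73, adjusted p = 0.047) and 1 lower. None of 4 ISG15 conjugation enzymes was called or at an unadjusted p under 0.05 by any of the 3 tools.

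Here too leukocyte markers moved beside the effector genes. Macrophage markers rose in KO/YAP hearts (7 of 11 called higher), to sums of 134.0 to 187.6 CPM. Of the 3 neutrophil markers tested, 2 fell, with sums over the listed markers of 2.09 to 13.5 CPM. Fibroblast markers rose in 7 of 9 and endothelial markers in 3 of 10 with 1 lower. Cardiomyocyte markers fell in 2 of 10, and none of 7 erythroid markers was called by limma. The lymphocyte list, which includes the general leukocyte gene *Ptprc*, summed to 7.27 to 10.06 CPM. In KO/GFP hearts it summed to 2.55 to 5.28 CPM, with no overlap. Of 2 genes of that list tested, limma and edgeR called 0, with 1 at an unadjusted p under 0.05, and DESeq2 called 1 higher. The effector genes called lower therefore stood beside more macrophage and less neutrophil marker RNA, and the part of either was not tested.

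**Figure D5:**
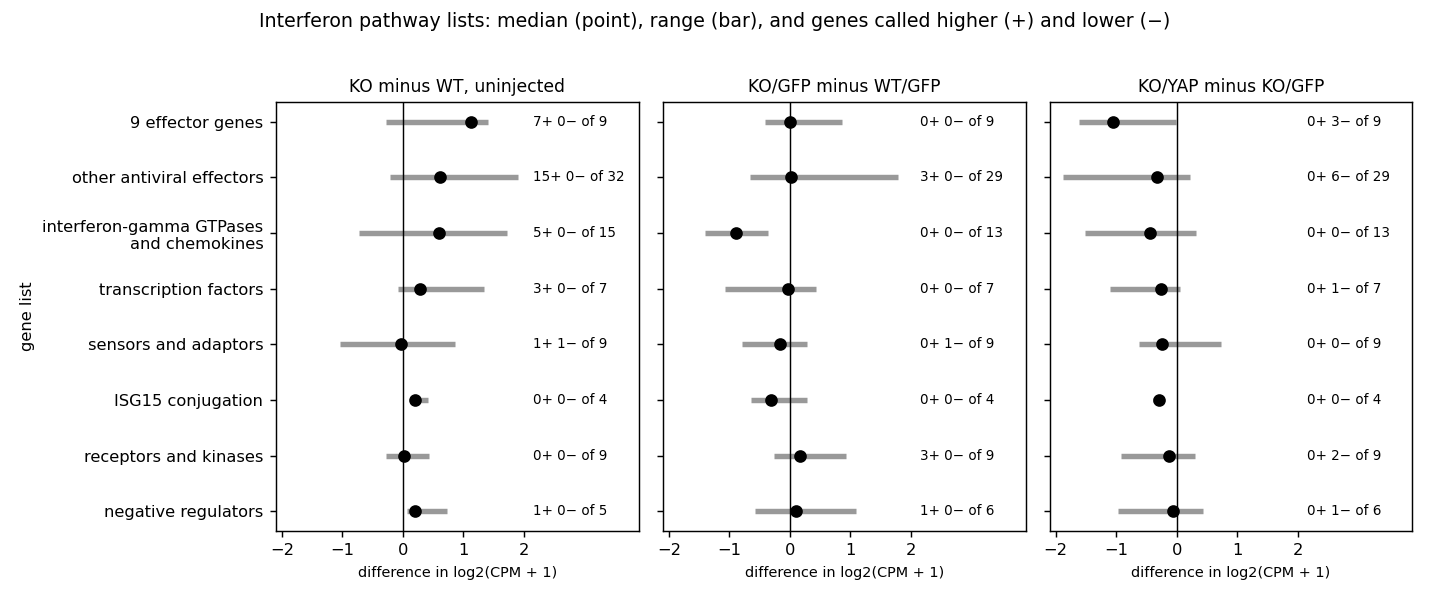
Median (point) and range (bar) of the difference in log2(CPM + 1) for 8 lists of interferon pathway genes in 3 comparisons with all libraries, with the numbers called higher and lower among those tested. The 9 effector genes have medians of 1.13 in uninjected hearts, 0.01 under GFP and -1.06 for YAP against GFP in Xinβ KO hearts, whereas receptors and kinases have medians of 0.02, 0.16 and -0.12.

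The remaining comparisons place YAP-treated hearts against the WT groups. In WT hearts, WT/YAP libraries held 1.24, 1.15, 1.72 and 1.97 CPM of *Ifit1* and 48.1, 54.5, 57.3 and 84.9 CPM of *Ifitm3*. None of the 9 genes was called between WT/YAP and WT/GFP by limma, edgeR or DESeq2, and none was at an unadjusted p under 0.05 in limma (2 in edgeR and 3 in DESeq2). Their log2 differences lay between -0.62 (*Ifit3*) and -0.06 (*Ifit2*) with all libraries, and without WT/GFP replicate 1 they lay between -0.25 (*Rsad2*) and 0.31 (*Isg15*). Over all genes tested, limma called 0 in this comparison, with 1011 at an unadjusted p under 0.05.

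Between KO/YAP and WT/GFP hearts, none of the 9 genes was called by any of the 3 tools, with 3 at an unadjusted p under 0.05 in limma and 7 in edgeR and in DESeq2. All 9 log2 differences were negative, from -1.31 (*Oasl2*) to -0.38 (*Usp18*), and without WT/GFP replicate 1 they ran from -0.70 (*Oasl2*) to 0.01 (*Usp18*). The percentage of all genes called lower was 0.0206%. Between KO/YAP and WT/YAP hearts, none was called by any tool and none was at an unadjusted p under 0.05. *Isg15* and *Oasl2* were lower in every KO/YAP than in every WT/YAP library, which was so for 4.72% of all genes, while limma called 0.0343% of genes lower. WT/YAP hearts held 1.94, 1.81, 2.42 and 3.74 CPM of *Isg15* and 5.49, 5.55, 8.61 and 7.48 CPM of *Oasl2*.

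Whether YAP acted differently in Xinβ KO and WT hearts was tested as an interaction. None of the 9 genes was called with all libraries by limma, edgeR or DESeq2, with 3 at an unadjusted p under 0.05 in limma, 0 in edgeR and 1 in DESeq2, while 3.77% of all genes had a called negative interaction. The largest values were -1.20 for *Ifit1* (SE 0.53, adjusted p = 0.18) and -1.08 for *Usp18* (SE 0.44, adjusted p = 0.15). Without WT/GFP replicate 1, *Ifit1* (-1.67, SE 0.37, adjusted p = 0.018), *Usp18* (-1.47, SE 0.31, adjusted p = 0.015) and *Ifitm3* (-1.14, SE 0.29, adjusted p = 0.034) were called. Over all genes, that fit called an interaction in 768 of 14597, of which 379 were positive and the rest negative.

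In injected hearts the 9 genes varied together between libraries of the same group. With group means removed, 36 of 36 pairs of genes correlated positively over the 16 injected libraries, with a median Pearson coefficient of 0.84, and 32 of 36 did so without WT/GFP replicate 1, with a median of 0.61. *Ifit2* then had a median coefficient of 0.05 with the other 8. In uninjected hearts 35 of 36 pairs were positive with a median of 0.59, and without Xinβ KO replicate 4 29 of 36 were positive with a median of 0.31 and a lowest coefficient of -0.87 (*Bst2* with *Oasl2*). These are descriptions over libraries that share their preparation and scaling.

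The genes most like the mean of the 9 were also interferon-induced. Over the 8 uninjected libraries they were *Ifi44*, *Rtp4*, *Ifit3b*, *Xaf1* and *Ifi27l2a*, with Pearson coefficients of 0.97 to 0.99. Over the 16 injected libraries they were *B2m*, the light chain of MHC class I (0.98), *Irf7* (0.94), *Ifi44* (0.93), *Sp100* (0.92) and *Rnf213* (0.92). Without WT/GFP replicate 1 *Irf7* (0.97) and *B2m* (0.95) stayed in front, and *Oas1a* and *Ifi27l2a* were next. The mean log2(CPM + 1) of the 9 genes was 3.86 ± 0.34 in uninjected Xinβ KO and 2.90 ± 0.15 in uninjected WT hearts (SD, n = 4). In injected hearts it was 3.65 ± 0.36 in KO/GFP, 3.48 ± 0.97 in WT/GFP, 3.10 ± 0.25 in WT/YAP and 2.74 ± 0.16 in KO/YAP.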

How the data were processed

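Per the study's methods, the authors used Cutadapt 2.3 for trimming, HISAT2 2.1.0 for alignment to GRCm38, assembled and counted transcripts with StringTie 1.3.4 and computed CPM with edgeR 3.26.1. The deposited values are a normalized signal, CPM on scaled library sizes whose columns sum to between 942566 and 1134439. Their steps gave back whole reads (100% of values within 0.05 reads), with 1 library whose smallest value was worth 3 reads. Symbols, positions and exon lengths came from GENCODE M21.

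Genes above 1 CPM in at least 4 of 8 uninjected or 8 of 16 injected libraries were tested (15598 and 14597). The deposited values are normalized CPM, so limma 3.58.1 was used in place of the Fisher's exact test that the study names. It was run on log2(CPM + 1), allowing a trend of variance with level. The p-values were adjusted over all genes tested by Benjamini-Hochberg. The log2(CPM + 1) scale understates changes of low genes. One model held the 16 injected libraries. The alternatives included edgeR 4.0.16 and DESeq2 1.42.0 on the whole reads. Scripts were tested on simulated data in R 4.3.3 and Python 3.11.15. Groups followed the labels. No 2 libraries of a group agreed within counting noise (chi-square per degree of freedom of at least 11.8 over 36 pairs). The genes and lists were chosen with earlier results of these data known. Named beyond the 9 are up to 3 called genes per list and direction by adjusted p, and the 5 genes per table most like the 9. Some genes that this rule names are not reported here.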

Additional observations from a re-analysis of the deposited data

Results flagged for a closer look

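In 9 of 60 groups of 4 libraries (the 9 genes and their mean, in 6 groups), Dixon's criterion set the highest or lowest library apart. Chance would give about 3 if the 60 were independent. They are not, since the genes vary together between libraries and the mean is made of them, so the 2 counts cannot be compared. *Ifit2*, *Ifit3* and *Isg15* in WT/GFP replicate 1 were at 44.4, 14.2 and 14.3 CPM. *Ifit2* and *Ifit3* in uninjected Xinβ KO replicate 4 were at 29.2 and 12 CPM, against 8.50 to 11.4 and 4.22 to 4.91 CPM in the other 3. *Ifit2* in WT/YAP replicate 2 was at 27.7 CPM, against 19.6 to 20.5 CPM. Smaller gaps stood in uninjected WT hearts, with *Ifit1* at 1.45 CPM in replicate 1, *Bst2* at 10.9 CPM in replicate 2 and *Oasl2* at 5.43 CPM in replicate 3.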

How the results depend on the processing

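In uninjected hearts, 7 of the 9 genes were called, all higher. The number called was also 7 under another pseudocount, no filter, 2 other scalings, limma without the trend, edgeR, DESeq2 and a covariate for sex (*Ddx3y*), and 5 to 8 with each library left out, where the 8 are 7 higher and *Ifit2* lower without Xinβ KO replicate 4. Genes called over all genes in uninjected hearts numbered 1044, against 1955 with DESeq2, 1927 with the sex covariate and, with 1 library left out, from 379 when this was WT replicate 1 up to 2098 when it was Xinβ KO replicate 4.

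With only the groups compared, genes called were 930 in place of 1993 for KO/GFP against WT/GFP, 1208 in place of 2156 for KO/YAP against KO/GFP, with 5 effector genes in place of 3, and 15 in place of 6 for KO/YAP against WT/YAP. DESeq2 called 24 in place of 3 for KO/YAP against WT/GFP, 11 in place of 0 for WT/YAP against WT/GFP and 71 in place of 6 for KO/YAP against WT/YAP. With 1 library left out the counts ran over 1262 to 2756, 1480 to 2500, 2 to 15, 1 to 4 and 0 to 1 for KO/GFP against WT/GFP, KO/YAP against KO/GFP, KO/YAP against WT/YAP, KO/YAP against WT/GFP and WT/YAP against WT/GFP, and over 631 to 1474 for the interaction. Effector genes called ran over 0 to 4 for KO/GFP against WT/GFP, 3 to 5 for KO/YAP against KO/GFP and 0 to 3 for the interaction, each highest without WT/GFP replicate 1.

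Replicate numbers did not pair the libraries: deviations of same-numbered libraries correlated between -0.19 and 0.14, with 1 of 24 injected and 0 of 4 uninjected pairs over 0.1. The replicate block gave 3.9e+02 genes in uninjected hearts, where *Oasl2* was not called (1.13, adjusted p = 0.053), and 707 in place of 1104 for the interaction.

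Signs reversed only in differences that were not called. For KO/GFP against WT/GFP, *Ifit3* was at -0.39 in edgeR and -0.40 in DESeq2, and the median of the 9 genes in place of their mean gave -0.32. For KO/YAP against KO/GFP, *Ifit2* was at 0.0015 and 0.0038 in the 2 tools. For the interaction, edgeR gave 0.00021 for *Ifit3*, 0.089 for *Rsad2* and 0.054 for *Bst2*, and DESeq2 gave 0.089 and 0.056 for the last 2. With 1 library left out, log2 differences crossed 0 for KO/GFP against WT/GFP in *Bst2* (-0.52 to 0.20), *Ifit3* (-0.28 to 0.58), *Oasl2* (-0.54 to 0.43) and *Rsad2* (-0.36 to 0.27), for KO/YAP against KO/GFP in *Ifit2* (-0.18 to 0.19), for KO/YAP against WT/GFP in *Usp18* (-0.67 to 0.010) and for KO/YAP against WT/YAP in *Rsad2* (-0.31 to 0.022). For WT/YAP against WT/GFP they crossed 0 in *Bst2* (-0.64 to 0.075), *Ifit1* (-0.71 to 0.049), *Ifit2* (-0.20 to 0.25), *Ifitm3* (-0.43 to 0.087), *Isg15* (-0.71 to 0.31), *Oasl2* (-0.95 to 0.018) and *Usp18* (-0.46 to 0.22), and for the interaction in *Bst2* (-0.55 to 0.16), *Ifit2* (-0.27 to 0.25), *Ifit3* (-0.82 to 0.044) and *Rsad2* (-0.37 to 0.26). The cause was not tested. The *Ifit1* values of KO/YAP hearts rest on as few as 6 reads, which limits their precision.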
